A study of Mus musculus with 18 samples.

Results

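The 10 genes described here encode enzymes and carriers of mitochondrial fatty acid beta-oxidation: the carnitine shuttle genes Cpt1b, Slc25a20 and Cpt2, the acyl-CoA dehydrogenase genes Acadvl, Acadl, Acadm and Acads, and Hadha, Hadhb and Hadh, which act on the later steps of the cycle. They were taken by name from a table of 20922 genes, each was found there once, and all 10 passed the filter on low values. RNA was sequenced from 18 samples of tibialis anterior, the muscle along the front of the shin, taken from mice at day 36 after the femoral artery of one hindlimb had been tied off, a model of peripheral artery disease. The groups were ligated muscles of BKO mice (4 libraries), intact muscles of the other hindlimb of BKO mice (5), ligated muscles of WT mice (4) and intact muscles of WT mice (5). Mice of both genotypes carried the floxed Bmal1 alleles (Bmal1fx/fx). The deletion was induced in skeletal muscle with doxycycline by oral gavage, through an ACTA-rtTA-TRE-Cre transgene. The labels write that transgene as +/+ for controls and -/- for knockouts, the reverse of what the names would call for. Which genotype is called higher or lower below therefore follows the group names, BKO and WT. The labels state neither age, sex nor collection time of day, nor whether ligated and intact muscles with the same number came from the same mouse.

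Beta-oxidation shortens fatty acids inside mitochondria and feeds acetyl-CoA to the tricarboxylic acid cycle and electrons to the respiratory chain. Long-chain fatty acids enter as carnitine esters: carnitine palmitoyltransferase 1 makes the ester at the outer membrane, a translocase carries it through the inner membrane, and carnitine palmitoyltransferase 2 turns it back into acyl-CoA. Each turn of the cycle then runs through an acyl-CoA dehydrogenase, a hydratase, a 3-hydroxyacyl-CoA dehydrogenase and a thiolase. BMAL1 is an activator of the circadian clock, and in muscle many of these genes are known targets of the lipid-sensing nuclear receptors PPARA and PPARD.

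The depth was 14.1 to 25.6 M (mega) reads per library, and the 10 genes had 151 to 4719 reads each in each library. The mitochondrial ribosomal RNA mt-Rnr2 took 40.9 to 55.5% of the reads in BKO ligated, 33.6 to 36.1% in BKO intact, 38.1 to 45.3% in WT ligated and 31.9 to 34.3% in WT intact libraries. It took more than 50% in BKO ligated libraries 4 and 5. Total Bmal1 (Arntl) stood at 63.8 to 82.0 normalized counts in BKO ligated and 42.4 to 61.1 in BKO intact libraries, against 12.2 to 18.3 in WT ligated and 41.3 to 68.4 in WT intact libraries. In ligated muscle the gene total was thus higher in the libraries labelled BKO. In intact muscle the ranges overlapped, with means of 49.9 in BKO and 56.3 in WT libraries. Since the labels do not say which part of the gene is removed, the gene total does not check the deletion. Nr1d2, which encodes the clock repressor REV-ERBβ and is activated by BMAL1, averaged 508 ± 68.5 in BKO ligated (SD, n = 4) and 524 ± 37.8 in BKO intact (n = 5), against 1592 ± 96.3 in WT ligated (n = 4) and 1675 ± 69.3 in WT intact libraries (n = 5).

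Per kilobase of exon, with every base in any annotated exon of a gene counted once, the 10 genes lay at 3 levels in WT intact muscle. These lengths ran from 2005 bases for Acadl to 8730 for Hadha, and the order depends on them. Before division by length, Hadha averaged 2106 normalized counts and Acadm 1959. Cpt1b averaged 728 ± 115 normalized counts per kb (SD, n = 5), Acadl 704 ± 76.1, Acadvl 667 ± 136 and Acadm 501 ± 57.5. Hadha at 241 ± 33.2, Hadhb at 230 ± 44.2, Cpt2 at 187 ± 49.7, Hadh at 178 ± 22.5 and Acads at 137 ± 14.2 formed a middle level, and Slc25a20 was lowest at 76.3 ± 15.4. The 5 libraries of neighbouring genes in this order overlapped, except between Acadm and Hadha and between Acads and Slc25a20. Slc25a20 ranked last in all 4 groups, and Acadvl ranked first in BKO ligated, BKO intact and WT ligated muscles. GENCODE annotates a protein-coding gene, Gm44502, over 2744 exon bases of Cpt1b on the same strand, and Dvl2 over 1151 exon bases of Acadvl on the opposite strand, where Dvl2 averaged 30.5 normalized counts. No source used here says how reads were split between overlapping genes, so the Cpt1b level is the less certain of these.

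**Figure D1:**
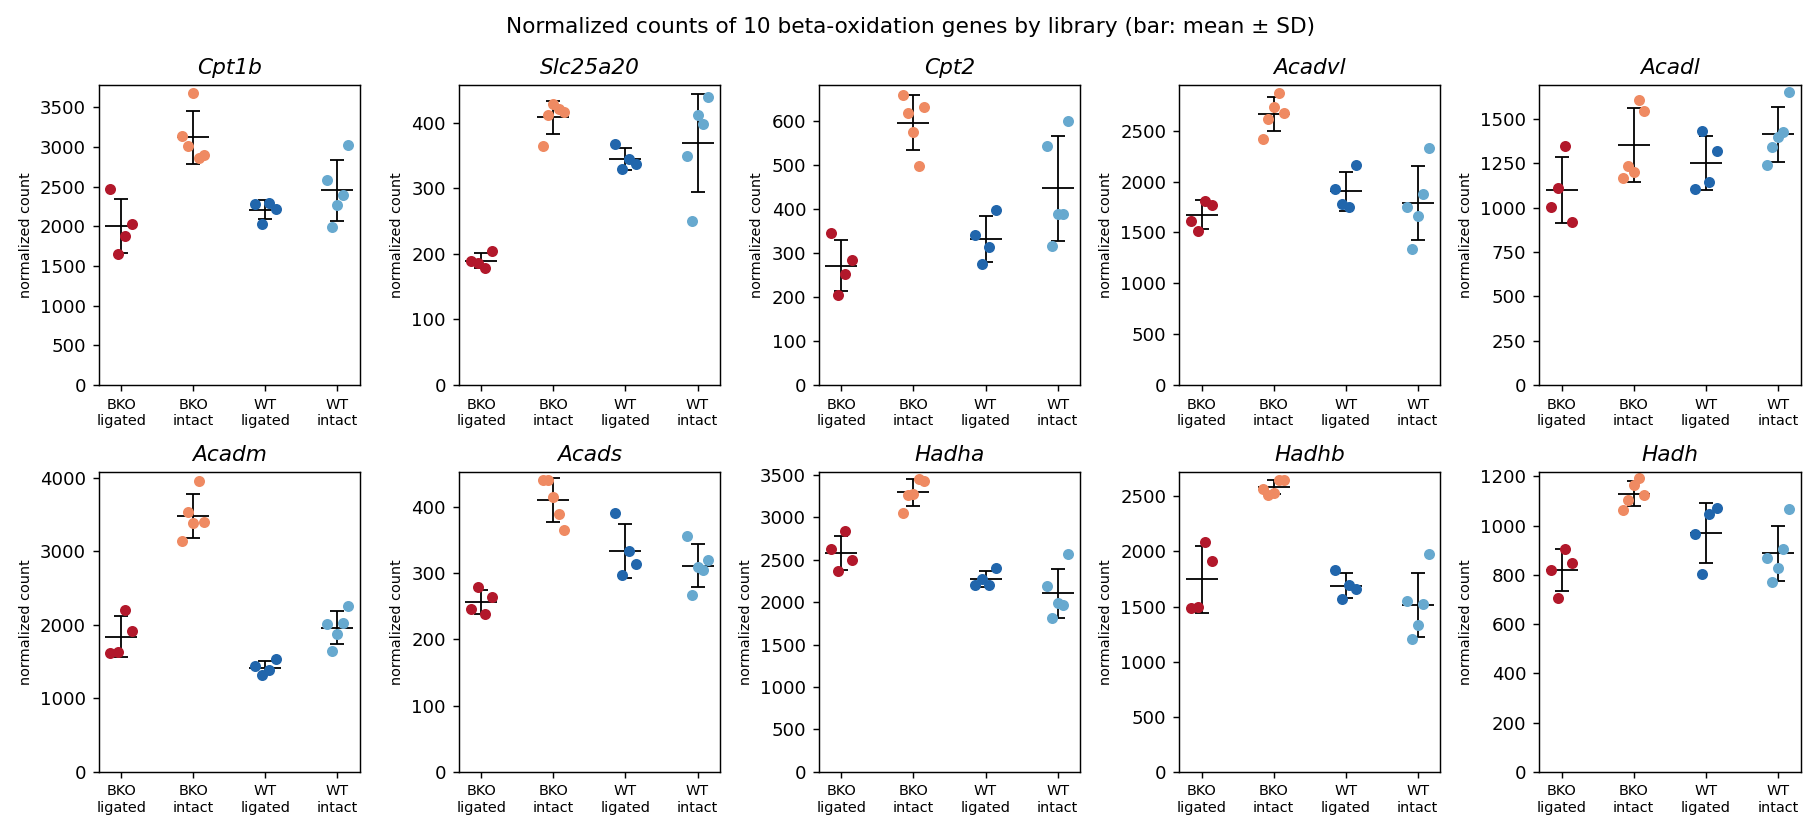
Normalized counts of the 10 beta-oxidation genes, with 1 panel per gene and 1 point per library; lines show the mean ± SD of a group. For Acadm, Acadvl, Acads, Hadha and Hadhb the 5 BKO intact libraries lie above the 5 WT intact libraries, and for every gene but Acadl the 4 BKO ligated libraries lie below the 5 BKO intact ones.

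In intact muscle, 7 of the 10 genes were higher in BKO than in WT mice and none was lower: Acadm, Acadvl, Acads, Hadha, Hadhb, Hadh and Cpt1b. Fold changes ran from 1.28-fold for Cpt1b to 1.78-fold for Acadm. Across all 12262 genes tested, 18.3% passed in this comparison (limma, Benjamini-Hochberg adjusted p under 0.05), 8.56% as higher and 9.75% as lower. The median log2 fold change was 0.42 over the 10 genes and 0.00 over all genes. For Acadm, Acadvl, Acads, Hadha and Hadhb the 5 BKO libraries all lay above the 5 WT libraries, a separation in that direction that 7.14% of all genes showed.

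Ligated against intact muscle gave different results in the BKO and WT mice. In BKO mice all 10 were lower in ligated than in intact muscle, by 1.23-fold for Acadl to 2.22-fold for Cpt2, while 47.2% of all genes passed in that comparison, 22.1% as higher and 25.1% as lower. For 9 of the 10, all but Acadl, the 4 ligated libraries lay below the 5 intact ones, as 19.7% of all genes did. The median log2 fold change was -0.66 over the 10 genes and -0.00 over all genes. In WT mice Acadm alone was lower and none was higher, while 39.8% of all genes passed, 18.7% as higher and 21.1% as lower, and Acadm was the gene of the 10 whose groups stood apart, as 17.8% of all genes did in that direction. There the median log2 fold change was 0.01 over the 10 genes and 0.00 over all genes. With values scaled to the reads of nuclear genes instead, the medians in WT mice became 0.286 over the 10 genes and 0.268 over all genes. Then 5 of the 10 passed as higher and none as lower, and Acadm no longer passed. Of all 12262 genes, 4434 passed as higher and 1144 as lower under that scaling. In BKO mice the medians under that scaling were -0.537 over the 10 genes and 0.116 over all genes. There 8 of the 10 passed, all as lower, beside 3399 of all genes as higher and 2260 as lower.

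The difference between these ligation effects, BKO minus WT, was itself tested, and 6 of the 10 genes passed, all with a lower value in BKO: Slc25a20, Acadvl, Acads, Hadhb, Hadh and Hadha. With DESeq2, and likewise with values scaled to the reads of nuclear genes, 9 of the 10 passed, and with edgeR 6, all lower in BKO. Of all genes, 6.01% passed, 3.04% as higher and 2.97% as lower. The median was -0.67 on the log2 scale over the 10 genes and -0.01 over all genes. Acadm, Cpt1b and Cpt2 had differences of -0.46 to -0.75 with adjusted p values of 0.0519 to 0.0654, and Acadl had -0.12 with a 95% interval of -0.48 to 0.23. Without the BKO ligated libraries with more than 50% mt-Rnr2 reads, which left 2 libraries in that group, all 10 genes were still lower after ligation in BKO mice. Of all 12262 genes, 4050 passed there, 2240 of them as lower. The difference passed for 4 of the 10, and Hadha (adjusted p = 0.058) and Hadh (adjusted p = 0.0527) were lost. Of all genes, 269 passed for the difference in that fit, against 737 with all libraries.

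In ligated muscle the BKO and WT mice differed less evenly over the 10 genes: Acadm was higher, Slc25a20 and Acads were lower, and the other 7 did not pass. Of all genes, 8.84% passed here, 4.16% as higher and 4.68% as lower, and the groups of these 3 genes did not overlap, as in 5.78% of all genes with BKO higher and 7.1% with BKO lower. The median log2 fold change was -0.19 over the 10 genes and -0.02 over all genes. Only Slc25a20 kept its call under every alternative setting run. The calls of Acadm and Acads were lost when single libraries were left out and without the libraries rich in mt-Rnr2. The single libraries were BKO ligated 5 or 6 or WT ligated 2, 4 or 5 for Acadm, and BKO ligated 2 or 5 or WT ligated 2 or 5 for Acads. Both calls were also lost with only the groups compared, and that of Acadm when scaled to the reads of nuclear genes. The 7 that did not pass ran from -0.30 for Cpt2 to 0.18 for Hadha, and Hadhb had 0.03 with a 95% interval of -0.22 to 0.29. These are bulk samples, so fewer cells of a type and less RNA per cell cannot be told apart. The comparisons that use the same group share its libraries, so their values are given side by side and are not independent of each other.

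**Figure D2:**
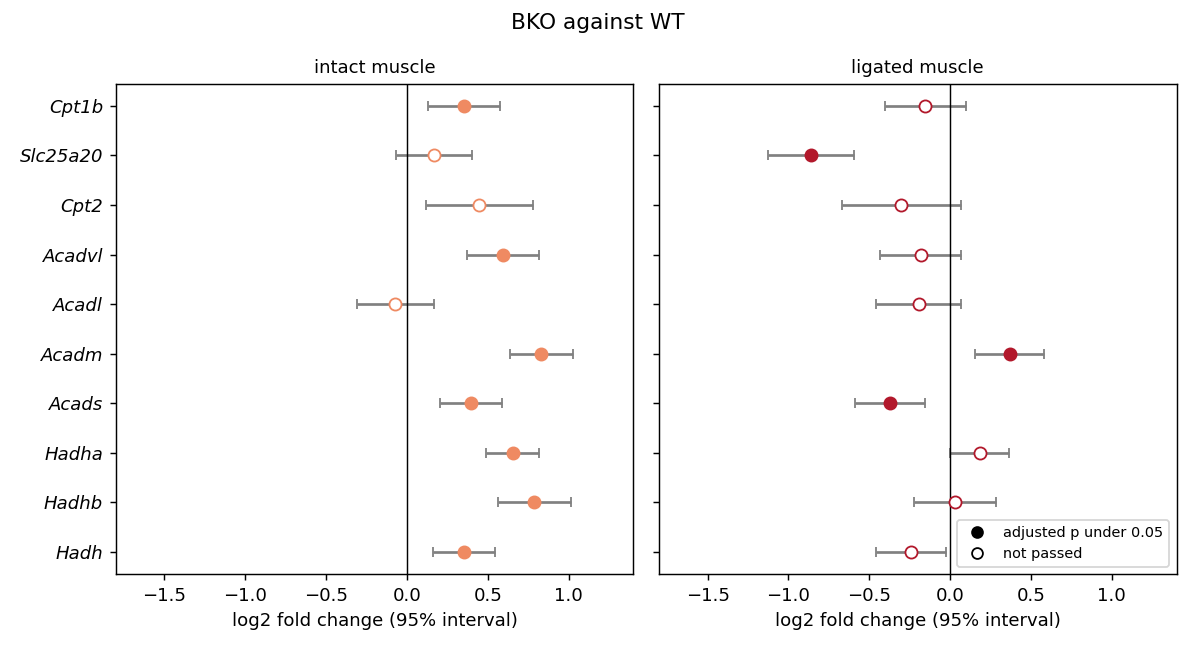
Log2 fold change of BKO against WT for each gene, in intact muscle (left) and ligated muscle (right), with 95% intervals; filled points have an adjusted p under 0.05. In intact muscle 7 points are filled, all above 0, and in ligated muscle 3 are filled, with Acadm above 0 and Acads and Slc25a20 below it.

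**Figure D3:**
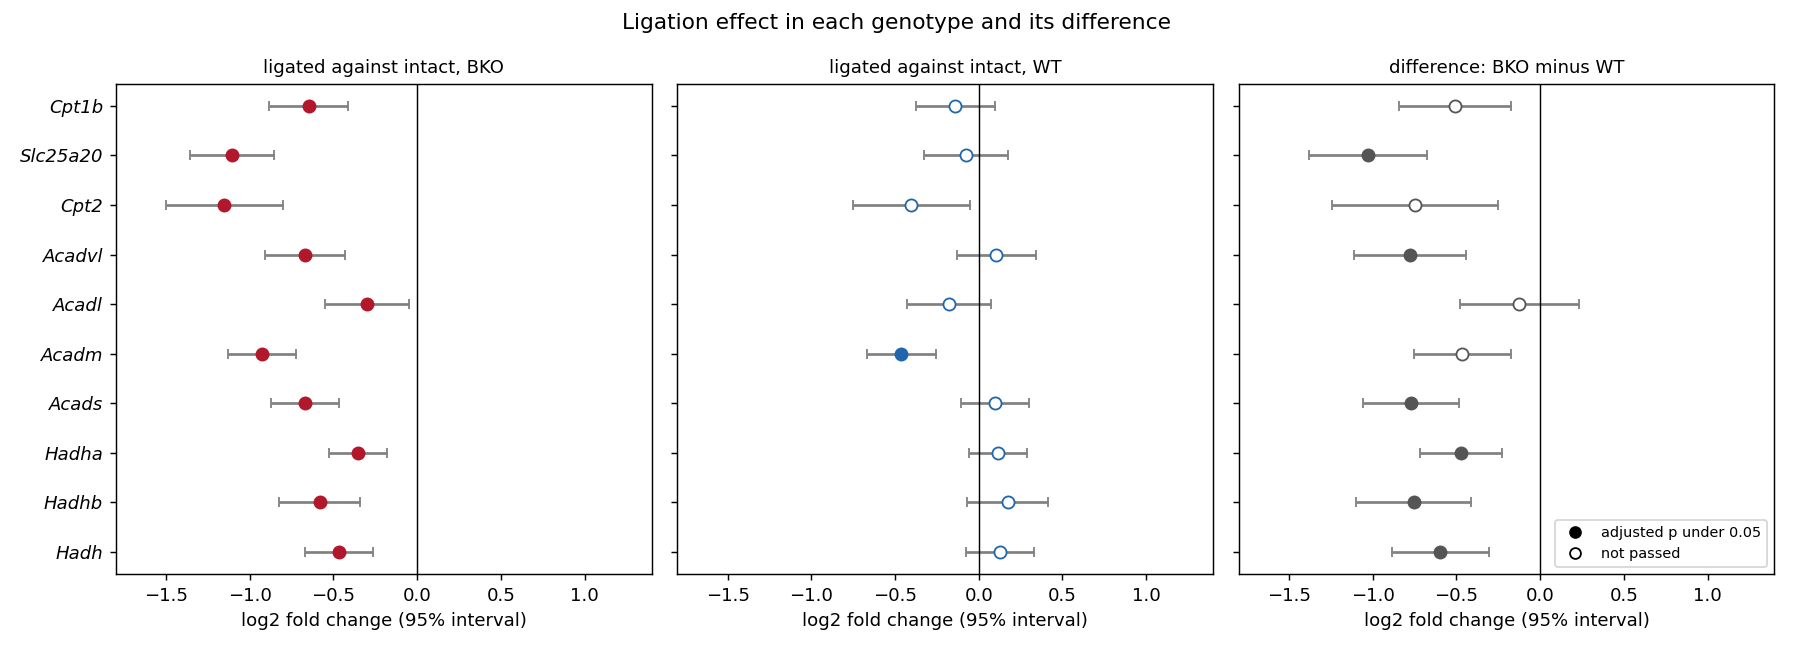
Log2 fold change of ligated against intact muscle for each gene in BKO and in WT mice, with 95% intervals; filled points have an adjusted p under 0.05. All 10 BKO points are filled and below 0, while in WT only Acadm is filled. Scaled to the reads of nuclear genes, 5 of the 10 genes passed as higher in WT, as did 4434 of all 12262 genes.

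Among the carnitine shuttle genes, the ligation effects of BKO and WT mice differed most for Slc25a20 (ENSMUSG00000032602, chr9:108662088-108684641, plus strand), the carnitine-acylcarnitine translocase of the inner membrane. Gene positions here and below are GENCODE's, on GRCm38. Slc25a20 had 189, 185, 179 and 205 normalized counts in the BKO ligated muscles, against 365, 412, 428, 421 and 415 in the BKO intact muscles. In WT mice it had 367, 329.5, 345 and 337 in the ligated muscles, against 348, 249.9, 412, 398 and 439.5 in the intact ones. The 4 BKO ligated muscles thus lay below every muscle of the other 3 groups, and WT intact library 3 was the lowest of the rest. Slc25a20 fell by 1.10 ± 0.12 (log2, SE) with ligation in BKO mice, a 2.15-fold lower level (adjusted p = 4.24e-07), against -0.08 ± 0.12 in WT mice (adjusted p = 0.651). The difference between these effects was -1.03 ± 0.17 (adjusted p = 0.00229). In ligated muscle it was 1.81-fold lower in BKO than in WT mice (log2 -0.86 ± 0.13, adjusted p = 9.74e-05), while in intact muscle the log2 difference was 0.17 with a 95% interval of -0.07 to 0.40.

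Cpt2 (ENSMUSG00000028607, chr4:107903981-107923610, minus strand) encodes carnitine palmitoyltransferase 2, which re-forms acyl-CoA in the matrix. Cpt2 had 346, 205, 253 and 284 normalized counts in the BKO ligated muscles, against 659.7, 619, 576, 499 and 633 in the BKO intact muscles. For WT mice the values were 340.2, 275, 315 and 399 in ligated muscles, against 543, 316, 389, 389 and 600.1 in intact muscles. All 4 BKO ligated muscles lay below all 5 BKO intact muscles, while the WT groups overlapped and WT intact libraries 2 and 6 stood above the other WT muscles. It fell 2.22-fold with ligation in BKO mice (log2 -1.15 ± 0.17, adjusted p = 1.37e-05). In WT mice the log2 difference was -0.40 ± 0.17 (adjusted p = 0.0637), and in intact muscle the BKO value exceeded the WT value by 0.45 ± 0.16 (adjusted p = 0.0541). Neither passed.

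Cpt1b (ENSMUSG00000078937, chr15:89416405-89425863, minus strand) encodes the muscle form of carnitine palmitoyltransferase 1, the step that malonyl-CoA inhibits. Cpt1b had 2466, 1652, 1874 and 2024 normalized counts in the BKO ligated muscles, against 3135, 3017, 3679, 2861 and 2901 in the BKO intact muscles. The WT ligated muscles had 2279.6, 2033, 2293 and 2219, against 2585, 1996, 2264, 2396 and 3029 in the WT intact muscles. The BKO groups did not overlap, whereas WT intact library 6 reached into the BKO intact range. Cpt1b fell by 0.65 ± 0.11 with ligation in BKO mice (log2, adjusted p = 9.81e-05) and was 1.28-fold higher in BKO than in WT intact muscle (adjusted p = 0.0244). The last of these calls was lost without BKO intact library 3, WT intact library 3 or WT intact library 4.

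Of the acyl-CoA dehydrogenases, which catalyse the opening step of each turn for fatty acids of different length, the medium-chain enzyme gene Acadm (ENSMUSG00000062908, chr3:153922357-153944632, minus strand) had the largest genotype difference in intact muscle. Acadm had 1611, 1629.6, 2200.0 and 1920.1 normalized counts in the BKO ligated muscles, against 3140.2, 3529, 3378, 3951 and 3395 in the BKO intact muscles. For WT mice the values were 1439.5, 1313, 1385 and 1528 in ligated muscles, against 2009, 1639, 1871, 2022 and 2253 in intact muscles. Each of the 5 BKO intact muscles lay above all the others, the 4 WT ligated muscles were the lowest, and no 2 groups of the same limb or genotype overlapped. Acadm was 1.78-fold higher in BKO than in WT intact muscle (log2 0.83 ± 0.09, adjusted p = 2.02e-06) and 1.29-fold higher in BKO than in WT ligated muscle (log2 0.37 ± 0.10, adjusted p = 0.0291). With ligation it fell by 0.93 ± 0.10 in BKO mice (adjusted p = 2.97e-07) and by 0.46 ± 0.10 in WT mice (adjusted p = 0.000829). The difference between these falls was -0.46 ± 0.14, with an adjusted p of 0.0519.

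Acads (ENSMUSG00000029545, chr5:115110299-115119346, minus strand) encodes the short-chain enzyme. Acads had 246, 279.8, 239 and 263 normalized counts in the BKO ligated muscles, against 440.1, 441, 414, 390.1 and 365 in the BKO intact muscles. The WT ligated muscles had 391, 297, 333 and 314, against 356, 266, 309, 304 and 320.1 in the WT intact muscles. The BKO ligated muscles were the lowest on average and the BKO intact muscles the highest, and both stood clear of the WT group of the same limb. Acads was 1.32-fold higher in BKO than in WT intact muscle (log2 0.40 ± 0.09, adjusted p = 0.00413) and 1.29-fold lower in BKO than in WT ligated muscle (log2 -0.37 ± 0.10, adjusted p = 0.0269). The ligation effects were -0.67 ± 0.10 in BKO mice and 0.10 ± 0.10 in WT mice, and they differed by -0.77 ± 0.14 (adjusted p = 0.00408).

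Acadvl (ENSMUSG00000018574, chr11:70010183-70015411, minus strand) encodes the very-long-chain enzyme, bound to the inner membrane. Acadvl had 1614, 1511, 1807 and 1773 normalized counts in the BKO ligated muscles, against 2418, 2619, 2739, 2874 and 2671 in the BKO intact muscles. The WT ligated muscles had 1923, 1781, 1746 and 2168, against 1750.0, 1334, 1662, 1877 and 2335 in the WT intact muscles. The 5 BKO intact muscles lay above all muscles of the other groups, and the lowest value came from WT intact library 3. Acadvl was 1.51-fold higher in BKO than in WT intact muscle (log2 0.59 ± 0.11, adjusted p = 0.000474). It fell 1.59-fold with ligation in BKO mice (adjusted p = 6.85e-05), against a log2 difference of 0.11 ± 0.11 in WT mice, and these effects differed by -0.78 ± 0.16 (adjusted p = 0.00863).

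Acadl (ENSMUSG00000026003, chr1:66830839-66863277, minus strand), the long-chain enzyme gene, was the exception of the dehydrogenases. Acadl had 1005, 1113, 1349 and 919.7 normalized counts in the BKO ligated muscles, against 1166, 1235, 1198, 1607 and 1545 in the BKO intact muscles. In WT mice it had 1105, 1431, 1144 and 1318 in the ligated muscles, against 1240.2, 1343, 1398, 1424 and 1654 in the intact ones. All 4 groups overlapped. In intact muscle the log2 difference of BKO from WT was -0.07 with a 95% interval of -0.31 to 0.16, where the other 3 dehydrogenase genes had 0.40 to 0.83. Its ligation call in BKO mice, -0.30 ± 0.12 (adjusted p = 0.0451), was lost in 10 of the 19 alternatives run.

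Hadha (ENSMUSG00000025745, chr5:30118304-30155162, minus strand) and Hadhb (ENSMUSG00000059447, chr5:30155248-30184593, plus strand) encode the alpha and beta subunits of the mitochondrial trifunctional protein, which carries the hydratase, long-chain 3-hydroxyacyl-CoA dehydrogenase and thiolase activities. They lie head to head on chromosome 5, with RefSeq start sites 273 bases apart, so their promoter windows (250 bases before to 50 after each start) overlap. Both subunit genes passed in the same comparisons, as did Acadvl and Hadh on chromosomes 11 and 3. Any part of the overlap in this was not tested. The overlap, part of the stretch between the start sites, is shown because both genes share it. It lies at chr5:30155003-30155230 (GRCm38.p6, plus strand, which is the Hadhb strand; Hadha is read from the minus strand). GENCODE places the outermost end of Hadha inside it.
Hadha and Hadhb window overlap: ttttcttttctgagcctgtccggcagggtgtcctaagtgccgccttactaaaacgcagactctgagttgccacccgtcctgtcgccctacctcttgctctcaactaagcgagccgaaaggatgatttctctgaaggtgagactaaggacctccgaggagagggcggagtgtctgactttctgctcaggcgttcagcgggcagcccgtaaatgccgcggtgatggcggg

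Hadha had 2622, 2365, 2835 and 2499 normalized counts in the BKO ligated muscles, against 3050.4, 3260.4, 3273, 3455 and 3430.4 in the BKO intact muscles. In WT mice it had 2200.2, 2277, 2205 and 2399 in the ligated muscles, against 2190.0, 1813, 1994, 1967 and 2566 in the intact ones. All 9 BKO muscles but ligated libraries 4 and 6 lay above the highest WT muscle, WT intact library 6. Hadha was 1.57-fold higher in BKO than in WT intact muscle (log2 0.65 ± 0.08, adjusted p = 5.26e-06). It fell by 0.35 ± 0.08 with ligation in BKO mice (adjusted p = 0.00158), against a log2 difference of 0.12 ± 0.08 in WT mice, and the effects differed by -0.47 ± 0.12 (adjusted p = 0.022).

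Hadhb had 1484, 1498, 2084 and 1917 normalized counts in the BKO ligated muscles, against 2571, 2517, 2534, 2652 and 2650.4 in the BKO intact muscles. The WT ligated muscles had 1835, 1572, 1698 and 1658, against 1546, 1209, 1331, 1523 and 1976 in the WT intact muscles. The 5 BKO intact muscles lay within 2517 to 2652 and stood above every other muscle. Hadhb was 1.73-fold higher in BKO than in WT intact muscle (log2 0.79 ± 0.11, adjusted p = 2.78e-05). With ligation it fell by 0.58 ± 0.12 in BKO mice (adjusted p = 0.000353), against a log2 difference of 0.17 ± 0.12 in WT mice, a difference between the effects of -0.76 ± 0.16 (adjusted p = 0.0112). The ratio of Hadha to Hadhb counts averaged 1.503 ± 0.212 in BKO ligated (SD, n = 4), 1.274 ± 0.049 in BKO intact (n = 5), 1.348 ± 0.122 in WT ligated (n = 4) and 1.401 ± 0.102 in WT intact muscles (n = 5), and the ranges of the 4 groups were not tested against each other.

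Hadh (ENSMUSG00000027984, chr3:131233419-131272101, minus strand) encodes the 3-hydroxyacyl-CoA dehydrogenase for medium and short chains. Hadh had 819, 706, 907 and 849 normalized counts in the BKO ligated muscles, against 1063, 1104, 1164, 1195 and 1125 in the BKO intact muscles. For WT mice the values were 964, 803, 1046 and 1073 in ligated muscles, against 869.8, 771, 827, 905 and 1067 in intact muscles. BKO intact and WT intact muscles overlapped through WT intact library 6 alone. Hadh was 1.28-fold higher in BKO than in WT intact muscle (log2 0.36 ± 0.09, adjusted p = 0.00985). It fell by 0.47 ± 0.10 with ligation in BKO mice (adjusted p = 0.000579), against a log2 difference of 0.13 ± 0.10 in WT mice, and the effects differed by -0.60 ± 0.14 (adjusted p = 0.0156).

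Within the WT intact group, the 10 genes tended to be low or high in the same libraries. WT intact library 3 was the lowest of its group for 9 of the 10 genes and WT intact library 6 the highest for 9. The other groups were more mixed. WT ligated library 4 was the lowest for 7 genes and the highest for 1, and BKO intact library 4 the highest for 6 and the lowest for 2. In WT intact library 3 the summed level of 10 other PPAR target genes was 8110 normalized counts, against 17167 in WT intact library 6. Other mitochondrial beta-oxidation genes summed to 4834 against 6433, and tricarboxylic acid cycle genes to 48021 against 53504. Some sums went the other way, among them those of fibre markers (1.31 M against 1.04 M) and macrophage markers (360 against 278). The source of these library differences was not tested. The median coefficient of variation over the 10 genes was 12.7% in BKO ligated, 7.17% in BKO intact, 8.28% in WT ligated and 14.8% in WT intact muscles. Over the 10 fits that each left out 1 intact library, 6 to 8 of the 10 genes were higher in BKO intact muscle. Of all 12262 genes, 1778 to 2162 passed in these fits, in either direction. As a share of the reads of nuclear genes, the 10 genes took 0.142 ± 0.017% in BKO ligated (SD, n = 4), 0.199 ± 0.007% in BKO intact (n = 5), 0.153 ± 0.009% in WT ligated (n = 4) and 0.132 ± 0.021% in WT intact muscles (n = 5).

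Other steps of mitochondrial beta-oxidation were read from a list of 12 further genes. This list was chosen with earlier results known. In BKO against WT intact muscle 7 of the 12 were higher and none was lower, with a median log2 fold change of 0.35. Etfdh, which passes the electrons to ubiquinone, rose by 0.68 ± 0.12 (adjusted p = 0.000246), and Eci1, an enoyl-CoA isomerase, by 0.64 ± 0.12 (adjusted p = 0.000645). After ligation in BKO mice 7 of the 12 fell and 1 rose, with Decr1, a dienoyl-CoA reductase for unsaturated fatty acids, at -0.97 ± 0.11 (adjusted p = 6.05e-07) and Etfdh at -0.996 ± 0.122 (adjusted p = 1.74e-06). After ligation in WT mice 5 rose and 2 fell (7 and 0 when scaled to the reads of nuclear genes), with the hydratase gene Echs1 at 0.51 ± 0.09 (adjusted p = 7.42e-05). The effects differed in 8 of the 12, all lower in BKO, with Acaa2, a thiolase, at -1.05 ± 0.21 (adjusted p = 0.00674) and Echs1 at -0.67 ± 0.12 (adjusted p = 0.00436). Without BKO ligated libraries 4 and 5 the effects differed in 3 of the 12, and in 269 of all genes (against 737 with all libraries). In ligated muscle Acaa2 (log2 -0.72 ± 0.15, adjusted p = 0.00388) and Echs1 (-0.36 ± 0.09, adjusted p = 0.0131) were lower in BKO than in WT mice and the other 10 did not pass.

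The tricarboxylic acid cycle takes up the acetyl-CoA. Of its 14 genes listed, 10 were higher in BKO than in WT intact muscle and none was lower, with a median log2 fold change of 0.29. Sucla2, a subunit of succinyl-CoA ligase, rose by 0.54 ± 0.07 (adjusted p = 1.26e-05). After ligation 7 fell and 2 rose in BKO mice, and 2 fell and 7 rose in WT mice, which became 0 and 11 when scaled to the reads of nuclear genes. The effects differed in 4 of the 14, all lower in BKO, with the succinate dehydrogenase gene Sdhb at -0.80 ± 0.15 (adjusted p = 0.0045). With limma 12 of the 14 had an unadjusted p under 0.05 for this difference. Scaled to the reads of nuclear genes, 12 of the 14 passed, all lower in BKO, beside 1064 of all 12262 genes in that direction. Without BKO ligated libraries 4 and 5 the effects differed in 1 of the 14, and in 269 of all genes (against 737 with all libraries).

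Peroxisomes shorten very long fatty acids in a separate pathway, read from 10 genes. Of these, 4 were higher in BKO than in WT intact muscle and none was lower, led by Crot, the carnitine octanoyltransferase gene (log2 0.50 ± 0.08, adjusted p = 0.000201). After ligation in BKO mice 6 fell and 1 rose, with Abcd2, a peroxisomal fatty acid transporter, at -0.74 ± 0.08 (adjusted p = 7.43e-07) and the hydratase-dehydrogenase gene Ehhadh at -1.02 ± 0.16 (adjusted p = 2.48e-05). Ehhadh also fell in WT mice, by 0.96 ± 0.16 (adjusted p = 6.15e-05), where 3 genes rose and 2 fell. The effects differed in Abcd2, Crot and Scp2, all lower in BKO, where 737 of all genes passed. Without BKO ligated libraries 4 and 5 they differed in 1 of the 10, and in 269 of all genes. Scaled to the reads of nuclear genes, the effects differed in 6 of the 10, all lower in BKO. None of the 10 passed between BKO and WT ligated muscle (limma, adjusted p), where 1 had an unadjusted p under 0.05, 0 passed with edgeR and 0 with DESeq2.

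The genes that control carnitine and malonyl-CoA did not move as a group. In BKO against WT intact muscle Crat, carnitine acetyltransferase (0.33 ± 0.08, adjusted p = 0.00452), and Mlycd, which breaks down malonyl-CoA (0.33 ± 0.11, adjusted p = 0.0485), were higher. Acacb, the acetyl-CoA carboxylase that makes malonyl-CoA at mitochondria (-0.57 ± 0.11, adjusted p = 0.000811), and Cpt1c (-1.03 ± 0.26, adjusted p = 0.00867) were lower. After ligation 3 of the 7 rose and 2 fell in BKO mice, and 2 rose and none fell in WT mice. Crat fell by 0.52 ± 0.08 in BKO mice (adjusted p = 3.05e-05), against a log2 difference of -0.12 ± 0.08 in WT mice, and these effects differed by -0.41 ± 0.12 (adjusted p = 0.0418). Cpt1c rose by 1.34 ± 0.28 in BKO mice (adjusted p = 0.000538), and its ligation effects differed in the other direction, by 1.38 ± 0.40 (adjusted p = 0.0414). Its levels were low, with group means from 5.15 normalized counts in BKO intact to 14.8 in BKO ligated muscles. Acaca, the cytosolic carboxylase of fatty acid synthesis, rose with ligation by 1.18 ± 0.22 in BKO mice (adjusted p = 0.000156) and by 2.05 ± 0.22 in WT mice (adjusted p = 2.93e-07). Cpt1a, the liver form of carnitine palmitoyltransferase 1, rose by 0.58 ± 0.12 in BKO mice (adjusted p = 0.000544) and by 0.76 ± 0.12 in WT mice (adjusted p = 4.36e-05).

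**Figure D4:**
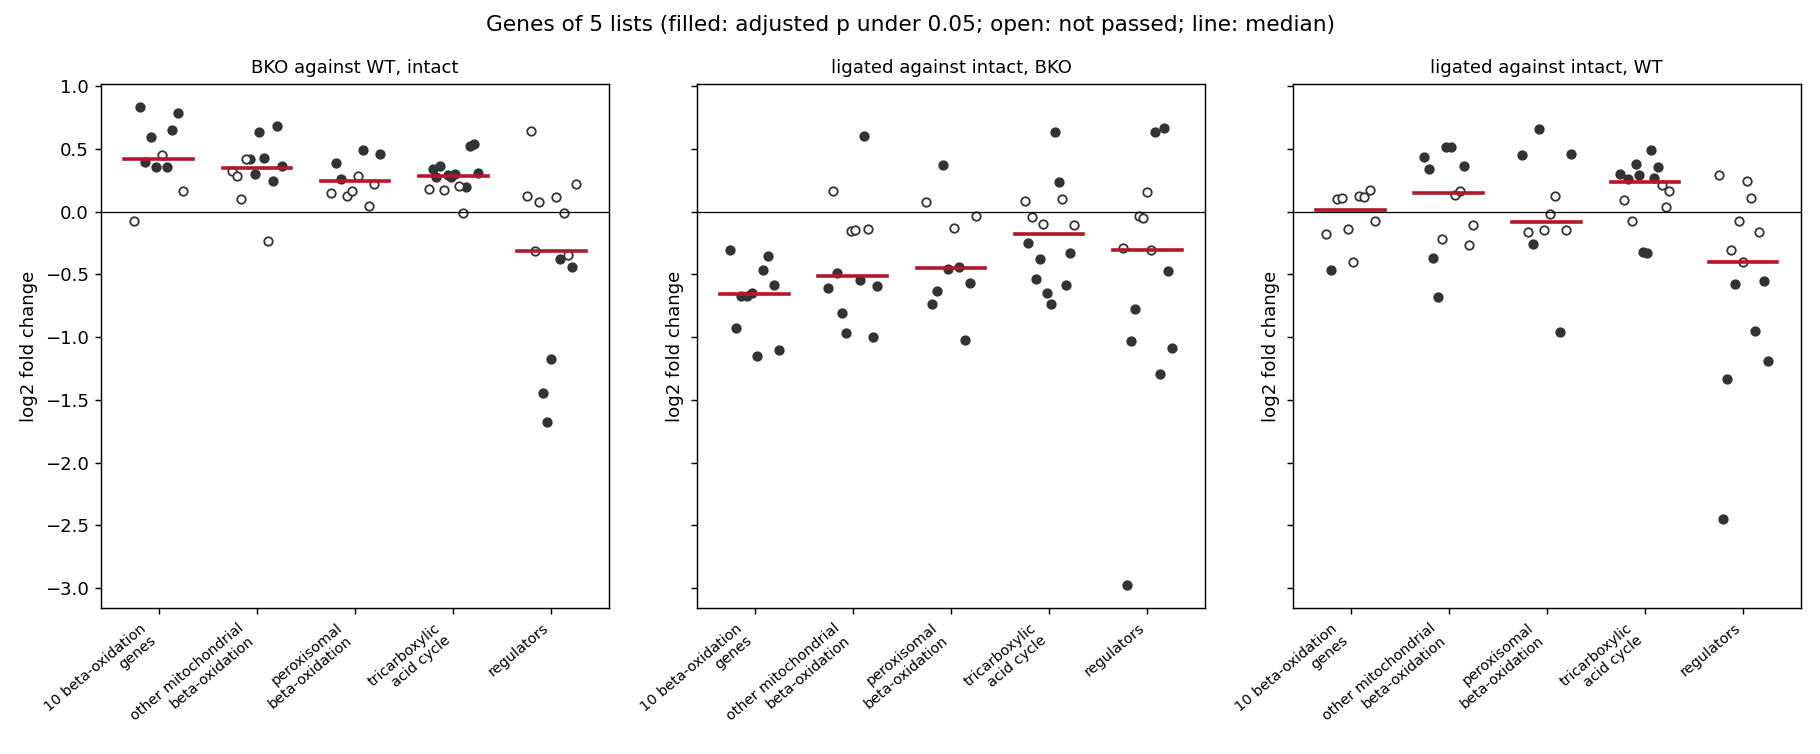
Log2 fold change of each gene of 5 lists for BKO against WT in intact muscle (left), ligated against intact muscle in BKO mice (middle) and in WT mice (right); filled points have an adjusted p under 0.05 and red lines are medians. The medians of the 10 beta-oxidation genes are 0.42, -0.66 and 0.01, and those of the 12 other mitochondrial beta-oxidation genes are 0.35, -0.52 and 0.15.

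Among 13 transcription factors and cofactors known to act on beta-oxidation genes, none was higher and 5 were lower in BKO than in WT intact muscle. These were Nr1d2 (-1.68 ± 0.08, adjusted p = 6.57e-12), Nr1d1, which encodes REV-ERBα (-1.44 ± 0.15, adjusted p = 5.84e-07), Nrip1, a corepressor of nuclear receptors (-1.18 ± 0.15, adjusted p = 1.18e-05), the retinoid receptor gene Rxra (-0.44 ± 0.09, adjusted p = 0.00238) and Ppard (-0.37 ± 0.12, adjusted p = 0.0378). Ppara, Ppard and Ppargc1a are named beyond the genes with the smallest p, and were picked with their values known. Ppara differed by 0.12 with a 95% interval of -0.26 to 0.50, and Ppargc1a, the coactivator PGC-1α, by -0.01 with an interval of -0.36 to 0.34. After ligation 6 of the 13 fell and 2 rose in BKO mice, and 6 fell and none rose in WT mice (5 and 3 in WT when scaled to the reads of nuclear genes). Esrrb, an estrogen-related receptor gene, fell by 2.97 ± 0.31 in BKO (adjusted p = 2.69e-07) and by 2.45 ± 0.31 in WT mice (adjusted p = 3.28e-06), and the retinoid receptor gene Rxrg by 1.09 ± 0.13 in BKO (adjusted p = 1.38e-06) and by 1.19 ± 0.13 in WT mice (adjusted p = 5.32e-07). Ppargc1a averaged 288 ± 88.7 normalized counts in BKO ligated (SD, n = 4) and 684 ± 102 in BKO intact muscles (n = 5), and 355 ± 49.2 in WT ligated (n = 4) and 691 ± 123 in WT intact muscles (n = 5). Its log2 fold changes with ligation were -1.29 ± 0.18 in BKO (adjusted p = 7.94e-06) and -0.95 ± 0.18 in WT mice (adjusted p = 0.000273). None of the 13 passed the test of the difference between the ligation effects (limma), where 6 had an unadjusted p under 0.05, 0 passed with edgeR and 1 passed with DESeq2. Scaled to the reads of nuclear genes, 2 of the 13 passed, as lower in BKO.

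Of the metabolic lists, other PPAR target genes had the largest median in intact muscle: of 9 tested, 7 were higher in BKO than in WT mice and none was lower, with a median log2 fold change of 0.77. Pdk4, the kinase that turns off pyruvate dehydrogenase, averaged 7880 ± 1520 normalized counts in BKO ligated (SD, n = 4) and 8502 ± 1350 in BKO intact (n = 5), against 2212 ± 557 in WT ligated (n = 4) and 2870 ± 906 in WT intact muscles (n = 5). It was higher in BKO by 1.61 ± 0.19 in intact (adjusted p = 4.98e-06) and by 1.85 ± 0.22 in ligated muscle (log2, adjusted p = 5.11e-06). Plin5, a lipid droplet protein of oxidative tissue, was higher by 2.002 ± 0.287 in intact and 1.741 ± 0.321 in ligated muscle, and Fabp3, the muscle fatty acid binding protein, by 1.24 ± 0.20 in intact and 0.89 ± 0.22 in ligated muscle. In ligated muscle 3 of the 9 were higher in BKO than in WT mice and 1 was lower, Lpl, which encodes lipoprotein lipase (log2 -0.69 ± 0.15, adjusted p = 0.00618). After ligation 6 of the 9 fell in BKO mice, and 4 fell and 2 rose in WT mice (1 and 3 when scaled to the reads of nuclear genes). In Angptl4, a lipase inhibitor with 3.85 to 7.74 normalized counts in WT intact muscles, the ligation effects differed by -3.60 ± 0.48 (adjusted p = 0.000479).

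Several fibre, adipocyte and endothelial markers differed between ligated and intact muscle in both genotypes. The summed level of 6 fibre markers (Acta1, Ckm, Mb, Myh4, Tnnt3 and Atp2a1) was 0.900 to 1.07 M normalized counts in BKO ligated and 1.02 to 1.24 M in BKO intact, against 0.784 to 0.928 M in WT ligated and 1.04 to 1.31 M in WT intact muscles. In BKO against WT intact muscle, 1 of these 6 was higher (Mb, log2 0.67 ± 0.18, adjusted p = 0.0111), 1 was lower (Atp2a1, -0.40 ± 0.11, adjusted p = 0.0109) and 4 did not pass. After ligation 3 of the 6 fell and 1 rose in BKO mice, and 3 fell and none rose in WT mice (2 and 1 when scaled to the reads of nuclear genes). Of 6 slow-fibre genes, Myl3 alone passed, as higher after ligation in BKO mice (log2 0.97 ± 0.28, adjusted p = 0.00778), and their sums were 472 to 1080 in BKO ligated and 198 to 712 in BKO intact muscles. They were 171 to 512 in WT ligated and 190.2 to 592 in WT intact muscles.

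All 6 adipocyte markers (Adipoq, Plin1, Cidec, Cfd, Lep and Retn) were higher in ligated than in intact muscle in both genotypes. Their sum was 804 to 3197 normalized counts in BKO ligated and 22.2 to 100.4 in BKO intact, against 2373 to 4703 in WT ligated and 44.3 to 160.0 in WT intact muscles. Between genotypes 1 of the 6, Lep, was lower in BKO in each limb with limma. In ligated muscle 5 of the 6 had an unadjusted p under 0.05, the median log2 fold change of the 6 was -1.23, and 4 passed as lower with edgeR and 2 with DESeq2. The brown adipocyte marker Ucp1 was at 0 in all BKO intact, WT ligated and WT intact libraries and at most 1.77 in BKO ligated libraries, and Cidea was at most 8.99. The 5 endothelial markers were higher after ligation in BKO mice, as were 4 of the 5 in WT mice, and between genotypes none of the 5 passed in intact or ligated muscle with limma, edgeR or DESeq2 (1 and 0 had an unadjusted p under 0.05 with limma). Their sums were 3115 to 4183 in BKO ligated and 1775 to 2343 in BKO intact, against 2847 to 3810.2 in WT ligated and 1645 to 2037 in WT intact muscles. Of 6 macrophage markers, 3 were higher and 1 was lower after ligation in WT mice, and none was higher and 1 was lower in BKO mice. In ligated muscle Csf1r alone passed with limma, as lower in BKO than in WT mice. There 5 of the 6 had an unadjusted p under 0.05, and the median log2 fold change of the 6 was -0.60. None of the 6 passed in intact muscle with limma, edgeR or DESeq2 or had an unadjusted p under 0.05 with limma. The macrophage sums were 200.2 to 349 in BKO ligated and 191 to 329 in BKO intact, against 392 to 481 in WT ligated and 260.2 to 386 in WT intact muscles. Of 4 markers of fibro-adipogenic progenitors, 2 were higher after ligation in BKO mice and 2 in WT mice, and none was lower. Dcn and Dpt were lower in BKO than in WT ligated muscle and Dcn also in intact muscle (log2 -0.45 ± 0.13, adjusted p = 0.0194). The sums of the 4 were 2276 to 3338 in BKO ligated and 1740 to 2996 in BKO intact, against 3559 to 4301 in WT ligated and 2893 to 3605 in WT intact muscles. The part of these cells and of the mt-Rnr2 share in the values of the beta-oxidation genes was not tested.

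**Figure D5:**
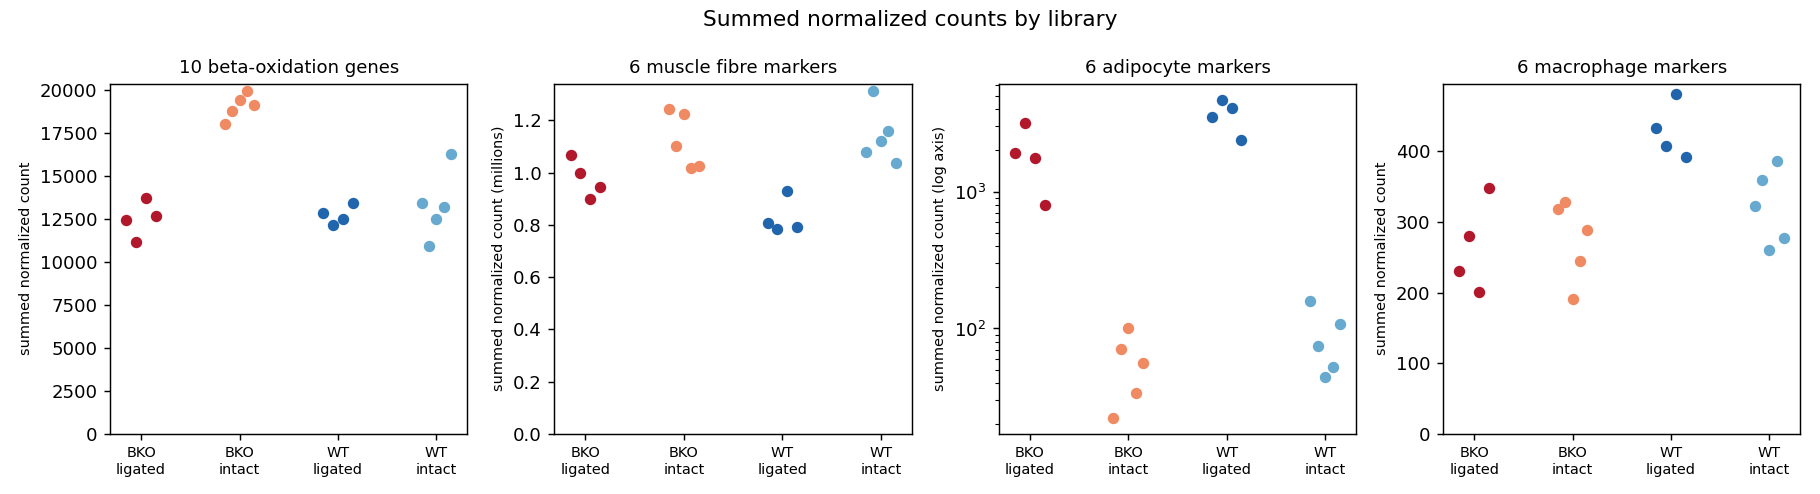
Values by library, 1 point each, of the summed normalized counts of the 10 beta-oxidation genes and of 6 fibre, 6 adipocyte and 6 macrophage markers (the adipocyte axis is on a log scale, and the fibre axis is in M). The 10 beta-oxidation genes sum to 11143 to 13727 normalized counts in BKO ligated, 18008 to 19906 in BKO intact, 12110 to 13412 in WT ligated and 10938 to 16239 in WT intact muscles.

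The promoter windows of 3 genes are shown, each from 250 bases before to 50 after the start site: Acadm and Slc25a20, which had the largest changes with genotype in intact and in ligated muscle, and Acadvl, which with Acadm holds a searched motif. The Acadm window lies at chr3:153944594-153944893 and the Acadvl window at chr11:70015379-70015678, both on the minus strand, and the Slc25a20 window at chr9:108661886-108662185 on the plus strand. The sequences are RefSeq's, on GRCm38.p6, written 5′ to 3′ along the gene. Capitals mark AGGTCA, the core hexamer bound by many nuclear receptors, or its reverse complement.
Acadm: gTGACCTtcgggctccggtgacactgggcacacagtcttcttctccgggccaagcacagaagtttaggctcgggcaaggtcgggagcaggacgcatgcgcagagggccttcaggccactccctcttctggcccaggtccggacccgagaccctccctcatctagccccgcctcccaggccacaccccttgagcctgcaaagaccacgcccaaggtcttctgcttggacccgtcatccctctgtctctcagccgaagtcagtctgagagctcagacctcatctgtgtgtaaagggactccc
Acadvl: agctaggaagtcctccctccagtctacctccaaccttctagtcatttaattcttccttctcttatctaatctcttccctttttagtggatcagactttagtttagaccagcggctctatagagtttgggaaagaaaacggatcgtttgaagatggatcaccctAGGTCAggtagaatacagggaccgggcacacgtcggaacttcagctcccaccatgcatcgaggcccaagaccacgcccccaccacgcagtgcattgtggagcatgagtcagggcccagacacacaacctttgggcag
Slc25a20: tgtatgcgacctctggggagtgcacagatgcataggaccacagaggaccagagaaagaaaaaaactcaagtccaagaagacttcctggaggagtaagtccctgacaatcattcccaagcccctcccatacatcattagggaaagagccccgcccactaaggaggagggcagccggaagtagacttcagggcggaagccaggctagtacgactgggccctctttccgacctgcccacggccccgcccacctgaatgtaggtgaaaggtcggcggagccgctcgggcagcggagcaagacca

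Of the 10 genes, 9 had a window in that table, Cpt1b being the other, and 5 motifs were searched on both strands. AGGTCA was in 2 of the 9 windows: 87 bases before the start of Acadvl, and on the reverse strand at the far end of the Acadm window, 249 bases before the start. It was in 16.3% of the 32851 windows of all genes. The E-box CACGTG, which BMAL1 with CLOCK can bind, was in none of the 9 and in 7.15% of all windows. The direct repeat DR1 (AGGTCA, any base, AGGTCA), which PPAR with RXR can bind, was in none of the 9 and in 0.0396% of all. The element TNAAGGTCA, bound by estrogen-related receptors, was in none of the 9 and in 1.28% of all, and the D-box TTANGTAA in none and in 2.32%. Both longer AGGTCA motifs contain the hexamer and overlap with it. A match describes letters in this window and is not a binding site.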

How the data were processed

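The authors' deposited values are normalized counts per Ensembl gene, a signal per library not corrected for gene length. Each is a whole number divided by 1 factor per library, so whole reads were recovered: 100% of values came out whole within 0.001, although the factor was near 1 in library 6 of the WT intact group and library 2 of the BKO ligated group. Per the labels' protocols, libraries came from a stranded total RNA kit. The submitters' processing notes name Trimmomatic 0.33, STAR 2.5.2, RSEM 1.3.3, DESeq2 and mm10. No source used here states the annotation or the strand setting, so overlapping genes are uncertain.

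The 12262 genes averaging at least 10 normalized counts were tested with limma 3.58.1 (R 4.3.3) on log2(normalized count + 1), in 1 model with a mean per group and an intensity trend. The threshold was an adjusted p of 0.05 (Benjamini-Hochberg over these genes). Fold changes refer to that log2 scale, and "±" is the SE of a fold change or the SD of a mean. Values per kb used the joined length of all GENCODE exons of a gene (GRCm38), which can exceed that of the transcript expressed. No label says that each sample is a separate mouse, so the tests reflect the spread among these samples, which may be technical. The scripts were tested on simulated data. Alternatives were other pseudocounts, no filter, TMM scaling, scaling to the reads of nuclear genes, the groups compared alone, edgeR 4.0.16, DESeq2 1.42.0, a replicate block and leaving out libraries. The 10 genes were all named, with, of each other list and comparison described, genes from the 4 with the smallest p and, chosen after their values were seen, Ppard, Ppara and Ppargc1a. The 10 genes and the lists were chosen with earlier results of these data known. Reads are not independent molecules.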

Additional observations from a re-analysis of the deposited data

Results flagged for a closer look

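Slc25a20 in BKO intact library 1 stood apart, at 364.5 normalized counts, the lowest of the 5 libraries of its group, with the other 4 between 412 and 428. Its distance to the nearest of them was large against the range of the group, which chance gives in about 1 of 20 groups. The rule was run on each of the 10 genes in each of the 4 groups, and this was the only flag. Over that many groups such a flag can be expected by chance. Without that library the 4 remaining BKO intact libraries still lay above all 4 BKO ligated libraries.

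The ligation effect of 6 genes differed between BKO and WT mice in the limma test of the difference, each with a lower value in BKO. The differences, on the log2 scale, were -1.028 for Slc25a20, -0.776 for Acadvl, -0.77 for Acads, -0.756 for Hadhb, -0.596 for Hadh and -0.472 for Hadha. In BKO mice all 4 ligated libraries lay below all 5 intact libraries for each of the 6, while in WT mice the ligated and intact libraries of each overlapped. The mt-Rnr2 share was higher in ligated than in intact libraries of both genotypes and highest in BKO ligated libraries 4 and 5, and its part in these differences was not tested.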

How the results depend on the processing

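No call turned its direction under any alternative run. Of the calls, 8 of 10 for ligation in BKO mice, 6 of 7 for BKO against WT intact muscle, 4 of 6 for the difference between the ligation effects, 1 of 3 for BKO against WT ligated muscle (Slc25a20) and 0 of 1 for ligation in WT mice were kept in all alternatives. Ligation in WT mice gave 5 of the 10 genes (all higher) when scaled to the reads of nuclear genes, and 2 with DESeq2. Of all genes, 5578 and 4952 passed there. BKO against WT ligated muscle gave 1 of the 10, and 769 of all genes, with only the groups compared. Among all genes, the difference between the ligation effects gave 1297 with nuclear-gene scaling and 1135 with DESeq2, against 737. Without the 2 BKO ligated libraries with over 50% mt-Rnr2 reads, an alternative chosen after seeing the data, it gave 269, and BKO against WT ligated muscle gave 616 of all genes (against 1084) and 1 of the 10. The cause of these shifts was not tested.

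Nuclear-gene scaling moved the median of all genes by 0.271 for ligation in WT mice, 0.12 for ligation in BKO mice, 0.07 for BKO against WT intact muscle, -0.08 in ligated muscle and -0.151 for the difference. Higher and lower calls then numbered 4434 and 1144 for ligation in WT mice (against 2295 and 2585), 3399 and 2260 in BKO mice (2713 and 3077), 1403 and 858 for BKO against WT intact muscle (1050 and 1196), 355 and 955 in ligated muscle (510 and 574) and 233 and 1064 for the difference (373 and 364). Leaving out 1 library at a time gave 1 to 3 of the 10 genes for ligation in WT mice and 9 to 10 in BKO mice. Of all genes, 4303 to 4685 and 5027 to 5748 passed there. BKO against WT gave 6 to 8 of the 10 in intact muscle and 1 to 3 in ligated muscle, beside 1778 to 2162 and 733 to 1257 of all genes. The difference gave 6 to 9 of the 10, and 402 (without WT ligated library 2) to 1015 of all genes.

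Same-numbered libraries did not deviate together (correlations -0.064 to 0.121), so the numbers were not taken to pair samples. With a replicate block, 2 of the 10 genes passed for ligation in WT mice, 10 in BKO mice, 8 for BKO against WT intact muscle, 3 in ligated muscle and 5 for the difference. Of all 12262 genes, 4434, 4667, 2021, 1029 and 382 passed, in the same order. DESeq2 and nuclear-gene scaling each gave 9 of the 10 for the difference.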
